A study of Rattus norvegicus with 8 samples.

Results

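The expression of 9 genes of the circadian clock was followed in cells of the rat nucleus pulposus, the soft centre of the intervertebral disc. They are the receptor genes Nr1d1 and Nr1d2, the transcription factor genes Dbp and Tef, the repressor genes Ciart, Per1 and Cry2, and Bhlhe40 and Bhlhe41. Rows of the deposited table were taken by gene symbol, and all 9 genes were found, each once, among 4226 rows. The genes had been picked because they were higher in one group of these same libraries. Their difference between the groups is therefore given as a description, without a test.

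Per the labels and the series' design text, SOD1, the copper-zinc superoxide dismutase of the cytosol, was knocked down in the cells of both groups. The cells were then transfected with wild-type SOD1 (SOD1-WT, 4 libraries) or with SOD1 carrying the K123R substitution, an arginine in place of a lysine (SOD1-K123R, 4 libraries). Both groups carry the treatment label lactate, which the design text gives as 10 mM for 7 days, and the comparison asks what the substitution does to expression in its presence. The column headings of the table are Ctrl for SOD1-WT and L for SOD1-K123R, and the labels do not say what L stands for. The sources used here give neither rat strain, age and passage nor the hour of harvest, and do not say whether replicates came from separate cultures. Errors and p-values therefore cover the spread among these libraries alone, which may be technical. Sod1 itself was not analysed here.

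The circadian clock is a transcriptional loop that runs in most cells of the body, disc cells included. CLOCK and BMAL1 bind DNA motifs called E-boxes and switch on the period and cryptochrome genes, whose proteins then block CLOCK and BMAL1. The same pair switches on the REV-ERB receptors, which repress Bmal1, and the PAR bZIP factors, which carry the rhythm to output genes through motifs called D-boxes.

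The E-box with the letters CACGTG is the motif these genes are best known for, so the RefSeq promoter windows of the 9 genes (rat assembly GRCr8, 250 bases before to 50 after a transcription start) were searched for it. It was found before a start of Ciart, Bhlhe40, Bhlhe41, Tef and Nr1d1, in 5 of the 10 windows of the 9 genes, Nr1d1 having 2 windows. Of all 33469 rat windows of this length 6.42% held it, and of 2354 windows of genes tested here 10.1%. The stretches that hold it are shown 5′ to 3′ on the strand of the gene, with each E-box in capitals. Ciart (chr2:186112247-186112359, minus strand) held 3 E-boxes within its last 93 bases before the start, a number that 19 of the 33469 windows reached (0.0568%). The stretches of the others are chr4:143174210-143174255 on the plus strand for Bhlhe40, chr4:180569378-180569423 on the minus strand for Bhlhe41, chr7:115206609-115206654 on the plus strand for Tef and chr10:84229620-84229665 on the minus strand for the second start of Nr1d1.
Ciart: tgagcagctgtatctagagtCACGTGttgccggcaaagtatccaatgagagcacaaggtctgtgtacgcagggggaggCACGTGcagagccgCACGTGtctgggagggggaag
Bhlhe40: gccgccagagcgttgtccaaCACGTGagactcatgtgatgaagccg
Bhlhe41: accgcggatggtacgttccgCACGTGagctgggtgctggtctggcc
Tef: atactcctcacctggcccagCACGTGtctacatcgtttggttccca
Nr1d1, second start: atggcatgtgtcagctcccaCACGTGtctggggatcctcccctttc

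Other motifs were searched on both strands of the same windows, and no match overlapped another. The variant E-box CACATG lay in 5 of the 10 windows, those of Nr1d1 (both starts), Nr1d2, Cry2 and Bhlhe40. Of all windows 14.0% held it, and of those of genes tested here 8.03%. AGGTCA, the core of the motif that REV-ERB and ROR receptors bind, lay in the window of Nr1d2 alone. It was in 16.2% of all windows and in 12.1% of those of genes tested. The D-box, searched as TTANNTAA, and the cAMP response element TGACGTCA had no match in the 10 windows. They were present in 5.84% and 1.83% of all windows and in 3.95% and 2.76% of those of genes tested. Neither the window of Dbp nor that of Per1 held any of the motifs, and sequence outside the windows was not searched. In 4 windows, those of Ciart, Tef, Per1 and the second start of Nr1d1, the start lies inside the span RefSeq gives the gene, so sequence before the outermost start of Ciart, Tef and Per1 was not searched. A match describes the letters in a window and not a bound site.

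**Figure D1:**
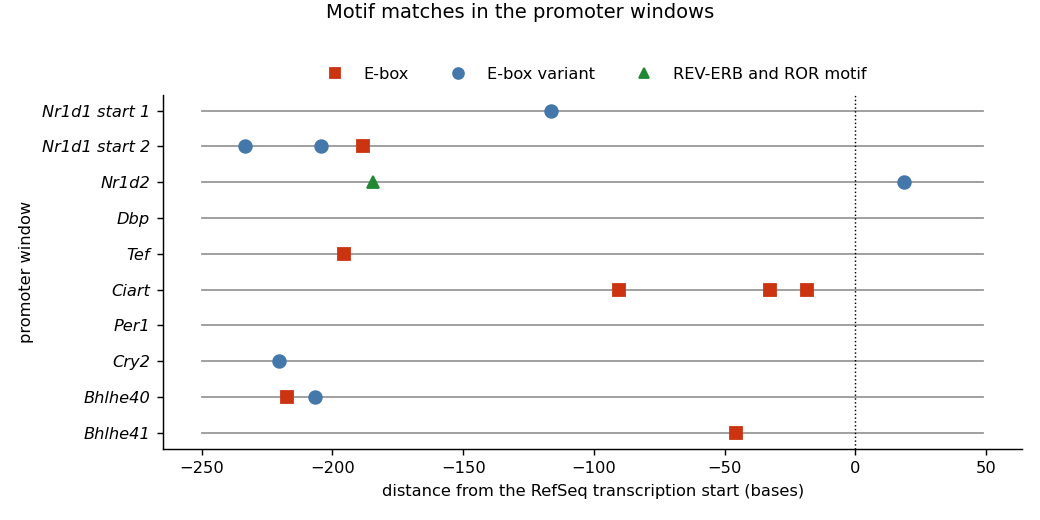
Motif matches in the 10 promoter windows of the 9 genes. The x axis is the distance in bases from the RefSeq transcription start (dotted line), each grey line is a window, and symbols mark E-boxes, variant E-boxes and the REV-ERB and ROR motif. Ciart has 3 E-boxes close to its start, and the windows of Dbp and Per1 are empty.

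Values are TPM, which correct for the length of a transcript and the size of a library, so levels can be compared between genes. All 9 genes were higher in SOD1-K123R. For none of them did a library of one group reach the range of the other, against 42.6% of the 2890 genes tested (those with a mean of at least 1 TPM) that were higher without overlap. In a limma fit with Benjamini-Hochberg adjustment all 9 were also called higher at 0.05, against 44.6% of the genes tested. The genes were chosen from this contrast, so nothing is read from either count. The 9 genes together summed to 83.3 ± 5.13 TPM in SOD1-WT and 673 ± 50.4 TPM in SOD1-K123R (mean ± SD, n = 4 each, as for all errors of TPM below). Their median log2 fold change was 2.40, where that of all genes tested was -0.49. Median-of-ratios scaling moved these medians to 2.84 and -0.14, and restricting the fit to genes averaging 5 TPM or more left the first at 2.40 and turned the second to 0.27. Fold changes on the log2 scale are of TPM + 1 and are given with limma's standard error (SE).

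The table holds only part of the transcriptome: its columns summed to 187515 to 243393 TPM, with SOD1-K123R above SOD1-WT in every library, and no source used here says how its rows were chosen. Read depth is unknown. Pearson's r of log2 values across genes, which are not independent replicates, was 0.981 to 0.994 between libraries of a group and 0.788 to 0.818 between the groups. Of 19 nucleus pulposus markers 9 were in the table, with sums of 249 to 261 TPM in SOD1-WT and 1098 to 1191 TPM in SOD1-K123R, most of it from Slc2a1. Of the 8 tested, Cd24, Sox9, Car12, Nog and Slc2a1 rose and Acan, Cdh2 and Car3 fell (limma). Cd24 went from 10.1 ± 1.43 to 31.2 ± 6.44 TPM and Acan from 1.54 ± 0.419 to 0.645 ± 0.0998 TPM, Col2a1 was listed at 0 in SOD1-WT and at 0.0800 TPM or less in SOD1-K123R, and the notochordal markers T, Krt8, Krt18 and Krt19 were not analysed here. Among markers of other cells the macrophage gene Cd68, the 1 of 4 leukocyte markers in the table, was at 5.44 to 7.94 TPM in SOD1-WT and 22.8 to 29.8 TPM in SOD1-K123R. The summed markers of annulus and tendon (2 of 5 in the table) were at 34.6 to 55.1 TPM against 17.0 to 21.7 TPM, and those of muscle (2 of 3) at 9.07 to 11.5 TPM against 1.59 to 2.45 TPM. Of bone and hypertrophic cartilage 2 of 4 were in the table, Runx2, which rose from 4.52 ± 1.03 to 13.3 ± 2.23 TPM, and Ibsp, which fell from 9.22 ± 1.82 to 1.54 ± 0.509 TPM, and their sum overlapped between the groups (11.7 to 15.9 against 12.1 to 17.1 TPM). Values of the adipocyte gene Fabp4 (1 of 2) overlapped, at 6.34 to 14.2 against 10.8 to 16.4 TPM. Fabp4 was still called higher in SOD1-K123R (log2 fold change 0.50, limma adjusted p = 0.0298). The endothelial gene Pecam1 (1 of 3) was at or below 0.460 TPM throughout, and markers of red cells, glia and neurons were not analysed here. The part of these other cells in the clock genes' difference was not tested, and in bulk RNA a change in the number of cells of a type and a change in RNA per cell cannot be told apart.

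Among the REV-ERB receptors, which bind heme and repress transcription, Nr1d1 (ENSRNOG00000009329, REV-ERB alpha) showed the widest difference of the 9 genes. It was at 9.16, 8.04, 10.2 and 8.62 TPM in SOD1-WT replicates 1 to 4 and at 206, 184, 215 and 176 TPM in SOD1-K123R replicates 1 to 4. Every SOD1-K123R library was at least 17.2 times the highest SOD1-WT library, and the log2 fold change of 4.29 (SE 0.10) ranked 2 among the 2890 genes tested. In SOD1-WT the gene lay in the middle of the genes tested (51.0% of them were lower), and in SOD1-K123R near the top (95.3% were lower). Its 3′ end overlaps Thra on the opposite strand in GRCr8. No source used here says whether the counting used strand, so reads of Thra could not be told apart from those of Nr1d1 there, and Thra was not analysed here.

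Nr1d2 (ENSRNOG00000046912, REV-ERB beta), the close relative of Nr1d1, had the second-smallest gap between the groups. Its level was 4.66, 6.95, 8.38 and 6.89 TPM in SOD1-WT and 24.1, 25.2, 19.9 and 18.8 TPM in SOD1-K123R. The lowest SOD1-K123R library stood 2.24 times above the highest SOD1-WT library, and the log2 fold change was 1.59 (SE 0.16). SOD1-WT replicate 1 was the low library of its group. The ratio of Nr1d1 to Nr1d2 within a library, which scaling of the library cannot change, was 1.40 ± 0.380 in SOD1-WT and 9.01 ± 1.47 in SOD1-K123R. Nr1d1 thus went from a level near that of Nr1d2 to one well above it, and the ratios did not overlap (1.16 to 1.97 against 7.30 to 10.8).

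Of the PAR bZIP activators, Dbp (ENSRNOG00000021027, D-box binding protein) differed more than Tef (ENSRNOG00000019383, thyrotroph embryonic factor). Dbp was at 11.2, 8.86, 7.09 and 9.88 TPM in SOD1-WT and at 46.9, 53.9, 50.9 and 59.9 TPM in SOD1-K123R, a log2 fold change of 2.40 (SE 0.13). The highest library of Dbp was SOD1-K123R replicate 4. Tef was at 10.1, 9.48, 8.73 and 10.7 TPM in SOD1-WT and at 17.4, 19.4, 17.5 and 20.6 TPM in SOD1-K123R. Its log2 fold change of 0.87 (SE 0.10) was the smallest of the 9 genes, and the groups stood apart by a factor of 1.62. The ratio of Dbp to Tef was 0.945 ± 0.123 in SOD1-WT, where the genes were close in level, and 2.82 ± 0.108 in SOD1-K123R.

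Ciart (ENSRNOG00000042717), also called CHRONO, a repressor that binds the CLOCK-BMAL1 complex, was the least abundant of the 9 genes in both groups. It was at 1.80, 2.25, 1.39 and 2.76 TPM in SOD1-WT and at 17.2, 15.1, 16.8 and 14.0 TPM in SOD1-K123R, with no overlap. Its log2 fold change was 2.48 (SE 0.15) with TPM + 1 and 2.92 with TPM + 0.1, since the added value weighs most on low genes. Its mean TPM was 7.71 times higher in SOD1-K123R.

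Per1 (ENSRNOG00000007387), a period protein gene that hormones and cAMP can also induce directly, and Cry2 (ENSRNOG00000007478), a cryptochrome gene, differed by like amounts. Per1 was at 11.7, 9.48, 10.1 and 12.0 TPM in SOD1-WT and at 33.3, 34.4, 33.8 and 29.4 TPM in SOD1-K123R, a log2 fold change of 1.52 (SE 0.10). Cry2 was at 8.48, 9.02, 7.53 and 9.10 TPM in SOD1-WT and at 29.8, 28.5, 27.2 and 30.4 TPM in SOD1-K123R, a log2 fold change of 1.66 (SE 0.10). Their ratio was 1.27 ± 0.150 in SOD1-WT and 1.13 ± 0.122 in SOD1-K123R. Values of this ratio overlapped between the groups. In GRCr8 Cry2 overlaps a long noncoding RNA gene on the opposite strand, LOC102546693, whose reads could have entered its TPM.

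The E-box competitors Bhlhe40 (ENSRNOG00000007152, DEC1) and Bhlhe41 (ENSRNOG00000048961, DEC2) are basic helix-loop-helix repressors that bind the same motif as CLOCK and BMAL1. Bhlhe40 was the most abundant of the 9 genes in both groups, at 22.2, 21.8, 23.5 and 24.7 TPM in SOD1-WT and at 268, 244, 248 and 202 TPM in SOD1-K123R. Bhlhe41 was at 3.75, 3.05, 3.46 and 5.87 TPM in SOD1-WT and at 73.8, 63.9, 75.7 and 53.6 TPM in SOD1-K123R. For both genes SOD1-WT replicate 4 was the highest library of its group and SOD1-K123R replicate 4 the lowest of its group, and the groups still stood 8.16 and 9.14 times apart. The log2 fold changes were 3.32 (SE 0.10) for Bhlhe40 and 3.77 (SE 0.16) for Bhlhe41, ranks 17 and 5 among the genes tested. The ratio within this pair was lower in SOD1-K123R, whereas those of Nr1d1 to Nr1d2 and of Dbp to Tef were higher. Bhlhe40 over Bhlhe41 was 6.02 ± 1.32 in SOD1-WT and 3.62 ± 0.243 in SOD1-K123R. These ratios were separated narrowly, the lowest in SOD1-WT being 4.21 and the highest in SOD1-K123R 3.81.

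**Figure D2:**
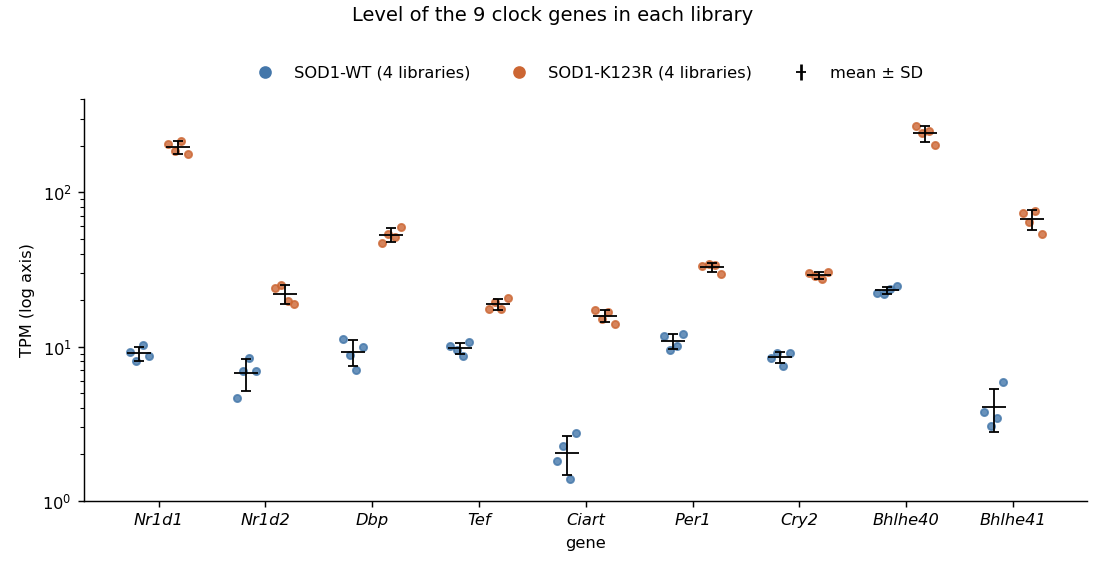
TPM of the 9 clock genes (log axis) in each of 4 SOD1-WT and 4 SOD1-K123R libraries. Points are libraries and bars are the mean ± SD. The groups do not overlap for any gene, the widest separation being that of Nr1d1 (9.01 ± 0.932 against 195 ± 18.1 TPM) and the narrowest that of Tef (9.76 ± 0.852 against 18.7 ± 1.55 TPM).

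The order of the levels differed between the groups. In SOD1-WT Bhlhe40 stood alone at the top (23.1 ± 1.31 TPM) and Ciart at the bottom (2.05 ± 0.589 TPM), and each was separated from its neighbour in every library. Per1, Tef, Dbp, Nr1d1, Cry2 and Nr1d2, with means from 10.8 down to 6.72 TPM, formed a run in which the values of each gene overlapped with those of the next. Bhlhe41 came eighth (4.03 ± 1.26 TPM), below Nr1d2 in each library although their ranges overlapped.

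In SOD1-K123R the genes spread out from 240.4 ± 28.0 TPM for Bhlhe40 to 15.8 ± 1.49 TPM for Ciart. Nr1d1 moved from the fifth to the second place, Bhlhe41 from the eighth to the third, and Tef from the third to the eighth. Values of Bhlhe40 and Nr1d1 overlapped, as did those of Bhlhe41 and Dbp, of Per1 and Cry2, and of Nr1d2 and Tef. The other neighbours were separated in all 4 libraries. Bhlhe40 and Nr1d1 made up 38.6% ± 2.30 of the summed TPM of the 9 genes in SOD1-WT and 64.6% ± 1.67 in SOD1-K123R.

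**Figure D3:**
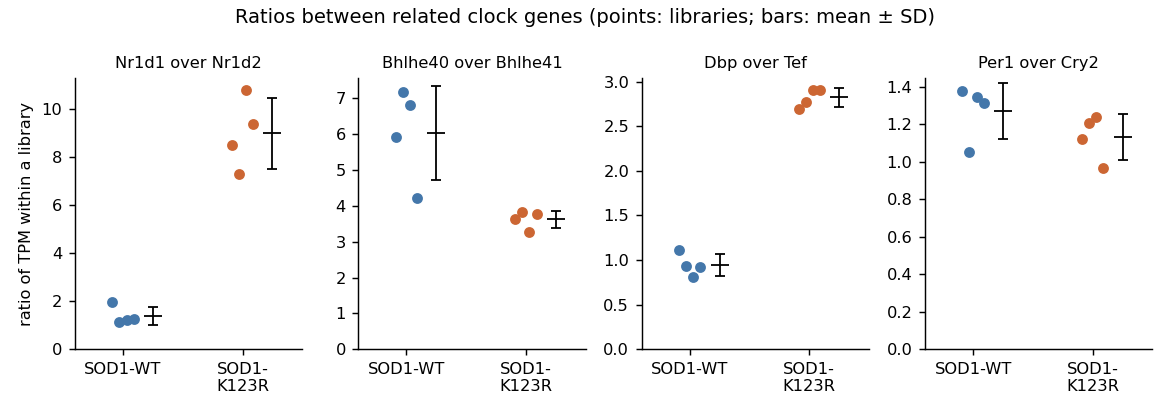
Ratio of TPM between related clock genes within each library (y axis, from 0), by group. Points are libraries and bars are the mean ± SD over 4. Nr1d1 over Nr1d2 (1.40 to 9.01) and Dbp over Tef (0.945 to 2.82) are higher in SOD1-K123R, Bhlhe40 over Bhlhe41 (6.02 to 3.62) is lower, and Per1 over Cry2 overlaps.

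Within the groups the 9 genes did not vary as 1 block. SOD1-K123R replicate 4 held the lowest value of its group for 6 genes (Nr1d1, Nr1d2, Ciart, Per1, Bhlhe40 and Bhlhe41) and the highest for the other 3 (Dbp, Tef and Cry2). Over all genes tested this library was the lowest of its group for 29.2% and the highest for 27.1%. SOD1-WT replicate 4 was the highest of its group for 6 of the 9 genes (Tef, Ciart, Per1, Cry2, Bhlhe40 and Bhlhe41) and the lowest for 0, against 29.1% and 14.4% of all genes tested. SOD1-WT replicate 3 held the highest Nr1d1 and Nr1d2 and the lowest Dbp, Tef, Ciart and Cry2. Over all genes tested it was the highest of its group for 38.5% and the lowest for 27.5%. These orders within a group were not tested. The largest deviations of a library from its group mean were 0.48 for Bhlhe41 in SOD1-WT replicate 4 and -0.42 for Nr1d2 in SOD1-WT replicate 1, on the scale of log2(TPM + 1). Both are smaller than the difference between the groups for each of the 9 genes.

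**Figure D4:**
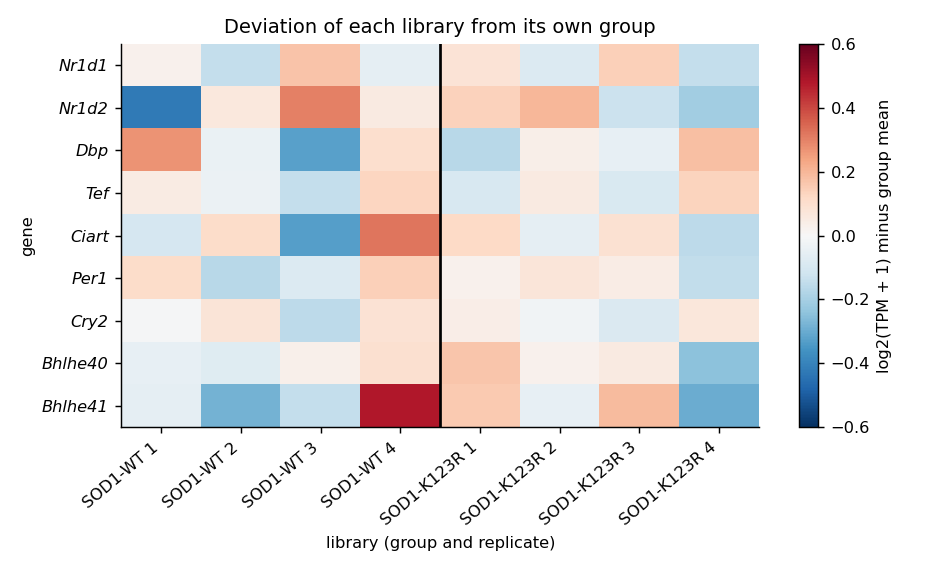
Deviation of log2(TPM + 1) from the mean of its own group for each of the 9 genes (rows) in each library (columns; the line divides SOD1-WT from SOD1-K123R). Red is above and blue below the group mean. SOD1-K123R replicate 4 is below its group for 6 genes and above it for Dbp, Tef and Cry2.

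Other genes of the clock were divided. Of 34 listed, 8 were in the table and 7 tested, of which 4 rose and 3 fell (limma adjusted p under 0.05; all genes tested, 44.6% higher and 51.1% lower). Their median log2 fold change was 0.67. Csnk1e, the kinase casein kinase I epsilon that marks period proteins for degradation, rose from 42.3 ± 2.21 to 135 ± 11.5 TPM (log2 fold change 1.65, SE 0.08, limma adjusted p = 3.61e-09). Rora, a receptor that activates Bmal1 through the motif REV-ERB binds, was at 2.54, 3.55, 4.19 and 3.27 TPM in SOD1-WT and at 10.5, 10.9, 8.61 and 6.50 TPM in SOD1-K123R, and rose with no overlap (log2 fold change 1.20, limma adjusted p = 1.76e-05). As with 6 of the 9 genes above, its lowest SOD1-K123R library was replicate 4.

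Gsk3b, a kinase that acts on several clock proteins, rose from 27.8 ± 1.99 to 56.7 ± 3.58 TPM, and Nampt, which makes the NAD precursor NMN, from 30.7 ± 5.53 to 49.1 ± 5.16 TPM. Sfpq, an RNA-binding protein found with period proteins, fell from 108 ± 5.75 to 36.5 ± 2.41 TPM. Timeless, which serves DNA replication as well as the clock, fell from 13.1 ± 0.968 to 5.52 ± 1.11 TPM. The highest limma adjusted p of these 4 was 0.000222, that of Nampt.

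Bmal2, a relative of Bmal1, was the 1 gene in the table from the CLOCK and BMAL activators of the list. It was at 2.54, 1.56, 1.55 and 2.30 TPM in SOD1-WT and at 1.13, 1.10, 1.09 and 1.40 TPM in SOD1-K123R. Its log2 fold change of -0.44 (limma adjusted p = 0.00791) lay close to the median of all genes. The call ended with median-of-ratios scaling (-0.15, limma adjusted p = 0.338) and with quantile normalization (-0.15, limma adjusted p = 0.351). Prkaa2, a subunit of the energy-sensing kinase AMPK, was below the filter, at 0.150 TPM or less in all libraries. Bmal1, Clock, Npas2, Per2, Per3, Cry1, Rorb, Hlf and Nfil3 were not analysed here, so the activating arm of the loop cannot be set beside its repressors.

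The list of genes known as targets of repression by REV-ERB receptors was thin in the table. Of 22 genes 6 were tested, of which 4 fell and 2 rose (all genes tested, 51.1% lower and 44.6% higher), with a median log2 fold change of -1.42. The falls of Il6, Il1b and Ccl2 in these libraries were known when the list was drawn up, so it lends the REV-ERB genes no independent support. Il6, an inflammatory cytokine, was at 104, 158, 170.4 and 138 TPM in SOD1-WT and at 17.0, 21.5, 20.5 and 12.4 TPM in SOD1-K123R (log2 fold change -2.94, SE 0.18, limma adjusted p = 1.28e-08). Il1b, another cytokine, fell by 1.98 on the log2 scale (SE 0.23), and Ccl2, a monocyte chemokine, by 1.93 (SE 0.16). Mmp9, a gelatinase, rose from 1249 ± 166 to 3750.0 ± 223 TPM (log2 fold change 1.59, SE 0.11). The remaining members, named because there were only these, were the receptor gene Tlr4, which fell by 0.91, and the autophagy kinase gene Ulk1, which rose by 0.99. The targets that belong to the clock itself were among the 15 not analysed here, and Fgf21 lay below the filter.

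Genes known to be rhythmic in many tissues rose in 8 of 9 tested members of a list of 30 (all genes tested, 44.6% higher), with a median log2 fold change of 1.66. Pdk4, which inhibits pyruvate dehydrogenase, rose from 5.92 ± 0.594 to 86.9 ± 7.47 TPM (log2 fold change 3.67, SE 0.10, limma adjusted p = 3.16e-11). Insig1, a sterol-sensing brake on cholesterol synthesis, rose by 3.24 (SE 0.10) and Cdkn1a, the cell-cycle inhibitor p21, by 2.16 (SE 0.12). Klf9, a Krüppel-like transcription factor, was at 6.81, 7.43, 8.51 and 9.68 TPM in SOD1-WT and at 33.1, 31.7, 25.3 and 23.9 TPM in SOD1-K123R, a rise of 1.69 (SE 0.14). Fkbp5, a co-chaperone of the glucocorticoid receptor, was the 1 member that fell, from 11.3 to 14.7 TPM in SOD1-WT to 5.29 to 8.40 TPM in SOD1-K123R (log2 fold change -0.82, limma adjusted p = 8.8e-05). Each of these genes answers to many signals besides the clock, and Pdk4, Insig1 and Cdkn1a were known to be higher in these libraries.

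Routes that can induce clock genes at once, namely cAMP and CREB, the glucocorticoid receptor and serum response, gave 8 tested genes of 27. Of these 3 rose, 4 fell and Egr2 did not pass (all genes tested, 44.6% higher and 51.1% lower). Their median log2 fold change was -0.29, a sign that turned with median-of-ratios scaling (0.05) and when genes averaging under 5 TPM were left out (0.44). Along the cAMP route Sik1, a salt-inducible kinase, rose from 6.86 ± 1.27 to 25.8 ± 3.71 TPM (log2 fold change 1.77, SE 0.14, limma adjusted p = 1.12e-07). Crem, a CREB-family factor, fell by 1.55 on the log2 scale, Pde4d, which breaks down cAMP, by 1.57 and Nr4a2, a nuclear receptor of the immediate early response, by 1.58. Of glucocorticoid receptor targets Mt2A, a metallothionein, and Klf9 rose (log2 fold changes 1.83 and 1.69) and Fkbp5 fell. Egr2, an immediate early gene, had a log2 fold change of 0.25 (limma adjusted p = 0.0640). It was called with median-of-ratios scaling (0.49, limma adjusted p = 0.00182), with quantile normalization (0.48, limma adjusted p = 0.00166), without the trend (limma adjusted p = 0.0461), without SOD1-WT replicate 4 (limma adjusted p = 0.0486) and without SOD1-K123R replicate 4 (limma adjusted p = 0.0311).

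**Figure D5:**
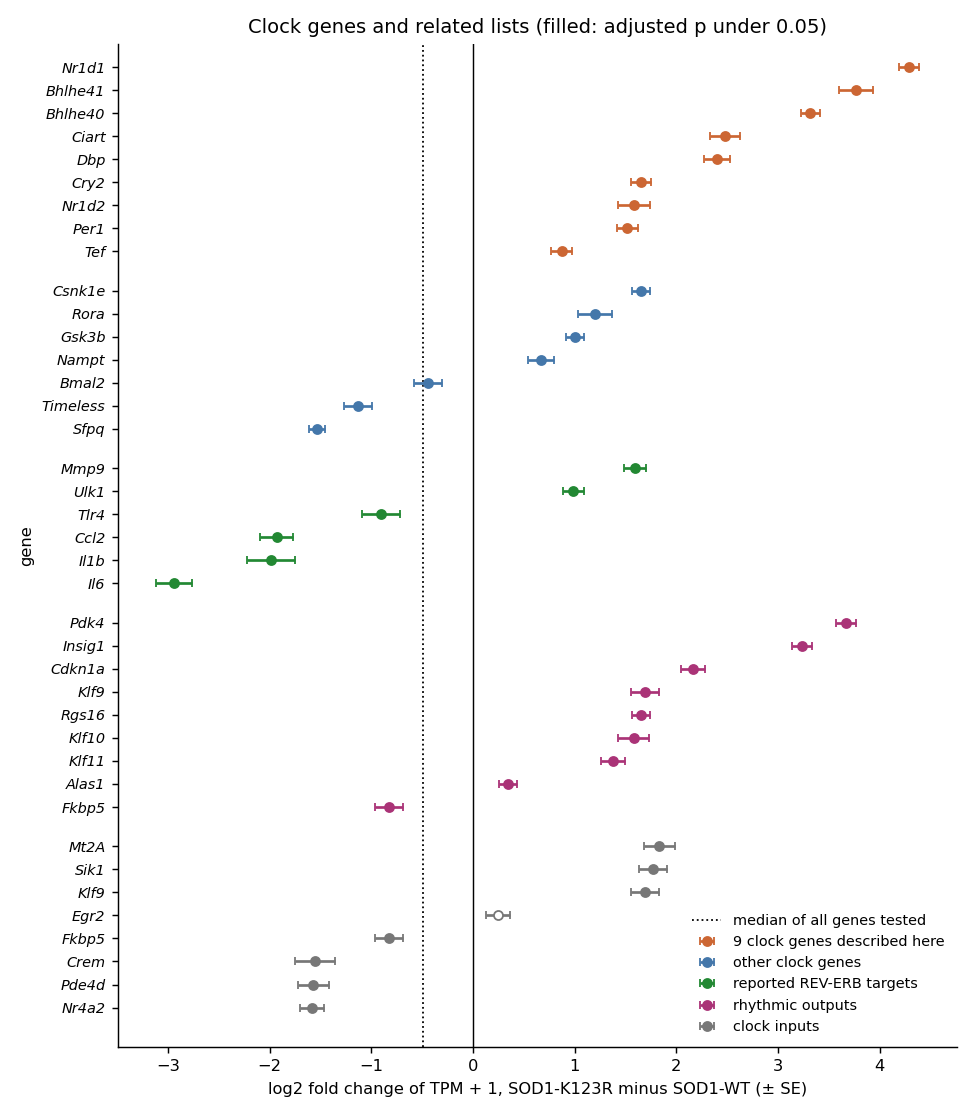
Log2 fold change of TPM + 1, SOD1-K123R minus SOD1-WT, with its SE, for the 9 clock genes and the tested members of 4 related lists. Filled points passed at an adjusted p under 0.05 (for the 9 genes a description only), the open point is Egr2, and the dotted line is the median of all genes tested (-0.49). The 9 genes lie at 0.87 to 4.29, and the other clock genes lie on both sides of 0.

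The genes whose profile over the 8 libraries was most like the mean standardized profile of the 9 genes were Fbxl12, Mideas, Rem2, Adora2a and Fzd7, with Pearson coefficients of 0.998 to 0.999. This likeness is set mostly by the difference between the groups: 818 of 2881 genes (28.4%) reached a coefficient above 0.95. Fbxl12, an F-box protein of a ubiquitin ligase, went from 8.46 ± 0.502 to 24.7 ± 0.439 TPM. Adora2a, a receptor for adenosine, went from 8.74 ± 0.952 to 59.1 ± 3.15 TPM and Rem2, a small GTPase, from 2.90 ± 0.801 to 173 ± 11.3 TPM. Mideas, a scaffold of a histone deacetylase complex, and Fzd7, a Wnt receptor, were 3.71 and 2.83 times higher in mean TPM.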

How the data were processed

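The authors deposited 1 table of TPM per gene (rows) and library (columns), which its name ascribes to RSEM. DESeq2 is listed, with no role, per the submitters' processing notes. Per the labels, RNA was isolated with TRIzol, reverse transcribed with SuperScript II and sequenced in pairs on an Illumina NovaSeq. Aligner, genome build and annotation: not given in the sources used here. Columns were matched to samples by the labels. Depth is unknown, so no counting interval was set.

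The 2890 of 4226 genes that averaged 1 TPM or more were transformed to log2(TPM + 1) and fitted with limma 3.58.1 (mean-variance trend, two-sided) in R 4.3.3, with Benjamini-Hochberg adjustment over all genes tested and a threshold of 0.05. The procedure was tested on simulated data in which a small part of the genes differed, whereas most genes were called here. That test therefore does not cover a setting like that of these data. The 9 genes, the lists and the alternatives were chosen with earlier results of these data known. Named were the 9 genes, all other listed clock genes in the table, the 4 largest changes and any gene not called in each further list, and the 5 most similar profiles. Promoter windows came from RefSeq (GRCr8), and all 9 genes matched by symbol. The files name no build, so GRCr8 coordinates serve the sequences only. Bmal1, Noct, T, Car3 and Bmal2 were also looked up by synonym.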

Additional observations from a re-analysis of the deposited data

Results flagged for a closer look

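The 34 genes of the naming rule were checked in 2 groups (68 groups of 4 libraries). Other genes named in the text, such as Crem, Pde4d, Fkbp5, Tlr4 and Ulk1, were not checked. Among those checked, 5 values lay apart from the other 3 of their group by Dixon's criterion, which chance gives in about 5% of groups. None belonged to the 9 clock genes. In SOD1-K123R replicate 4, Bmal2 was at 1.40 TPM (the others at 1.09 to 1.13), Sik1 at 20.3 TPM (27.3 to 27.9) and Insig1 at 493 TPM (574 to 587). Mideas was at 13.8 TPM in SOD1-WT replicate 4 (11.7 to 11.9), and Rem2 at 156 TPM in SOD1-K123R replicate 2 (177 to 181). Without SOD1-K123R replicate 4, the library in which 6 of the 9 clock genes were lowest, all 9 remained higher, with log2 fold changes of 0.83 (Tef) to 4.34 (Nr1d1).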

How the results depend on the processing

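The 9 genes were chosen from this contrast, so nothing is read from their calls below. In the main fit 44.6% of all genes tested were called higher and 51.1% lower. All 9 clock genes were called higher under each of the 15 alternatives run (pseudocount 0.1, no filter, a mean of at least 5 TPM, median-of-ratios scaling, quantile normalization, a replicate block, limma without the trend, and leaving out each library). Over these, log2 fold changes ran from 4.24 to 4.74 for Nr1d1, 3.67 to 4.18 for Bhlhe41, 3.2 to 3.79 for Bhlhe40, 2.37 to 2.92 for Ciart, 2.29 to 2.85 for Dbp, 1.60 to 2.10 for Cry2, 1.44 to 2.02 for Nr1d2, 1.46 to 1.97 for Per1 and 0.83 to 1.32 for Tef. Of the 33 tested genes of the naming rule none changed direction under these, and calls changed only for Bmal2 and Egr2, as given above. Without the filter the other clock genes had 8 calls and the REV-ERB targets 7, Prkaa2 and Fgf21 being added. Cell markers, Crem, Pde4d, Fkbp5, Tlr4, Ulk1 and the further genes named from GO terms were not followed singly. The counts of calls in the 4 related lists stayed within 1.5 times the main count, as did that of all genes. It was 2765 of 2890 in the main fit, 1845 of 1896 at 5 TPM or more and 3780 of 4226 without the filter. The balance of all genes moved. There were 1289 higher and 1476 lower in the main fit, 948 and 897 at 5 TPM or more, and 1363 and 1353 with median-of-ratios scaling. Same-numbered libraries did not deviate together (correlations of -0.35, 0.016, -0.20 and 0.054 for replicates 1 to 4). Those of unlike number ran from -0.40 to 0.44. Whether the numbers pair the samples cannot be decided from these values. The replicate block changed no call of a gene of the naming rule. Called with it were 9 clock genes, 7 other clock genes, 6 REV-ERB targets, 9 rhythmic genes and 7 input genes. So were 2743 of all 2890 genes tested, and nothing is read from these counts. The limits are the unknown choice of rows, the core activators not analysed here and values without read counts.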

Other observations

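The table's own GO annotation held 39 genes with circadian or rhythmic in a term, 8 of them among the 9 clock genes; this set was looked up after the data had been seen. Of 26 others tested, 14 were called higher and 12 lower in SOD1-K123R by limma, against 44.6% higher and 51.1% lower among all genes tested. Their median log2 fold change was 0.47. The highest was Adora2a, the adenosine receptor (log2 fold change 2.63, SE 0.10), followed by the transcription factor gene Sp1 (1.95, SE 0.14). Sin3a, the scaffold of a histone deacetylase complex, had a log2 fold change of 1.51 (SE 0.10). The lowest were Pspc1 (-1.86, SE 0.11), which with Sfpq belongs to the paraspeckle proteins, and Btbd9 (-1.68, SE 0.15). Hnrnpd, an RNA-binding protein that acts on mRNA stability, had a log2 fold change of -1.17 (SE 0.09).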
